A study of Homo sapiens with 12 samples.

Results

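The transcripts of 8 receptors of the tumor necrosis factor (TNF) superfamily that can signal to NF-κB were examined in HLE-B3 cells. Those of 2 adaptor proteins, recruited inside the cell by some of these receptors, were examined too. HLE-B3 is an immortalized cell line from the human lens epithelium. The receptors were TNFRSF1A, TNFRSF1B, LTBR, CD40, TNFRSF11A, TNFRSF12A, TNFRSF9 and TNFRSF21, and the adaptors were TRADD and RIPK1. They were taken by gene name and make up 10 of the 58735 genes in the table. RNA was sequenced in 4 groups of 3 biological replicates: untreated WT cells, WT cells given 200 μM H2O2 for 12 h, untreated ATG7 KO cells, and ATG7 KO cells given the same H2O2 treatment. The KO cells, named Atg7KO in the sample labels, were made with CRISPR/Cas9 and puromycin selection, and individual clones were picked, but the labels do not say which clone was sequenced. WT cells were not described as having gone through that selection, so a trait of the clone and the loss of ATG7 cannot be told apart. Untreated cells were collected at 0 h, so H2O2 and 12 h in culture cannot be told apart either. The study asked which signalling pathways differ between autophagy-deficient and WT lens epithelial cells under oxidative stress.

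TNF superfamily receptors are single-pass membrane proteins that cluster when a trimeric ligand binds. TNFRSF1A carries a death domain that recruits TRADD and RIPK1, and the ubiquitin chains assembled on RIPK1 activate the IKK complex, which frees NF-κB. The same complex can switch to a form that kills the cell, so these receptors stand between survival and death signals. LTBR, CD40, TNFRSF11A and TNFRSF12A bind TRAF proteins and can also open the non-canonical NF-κB route, while TNFRSF9 is best known as a costimulator of T cells.

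The libraries held between 15602183 and 17659496 reads on genes (median 17205174). Untreated ATG7 KO replicate 1 stood apart from its replicates, with a mean correlation of 0.974 against 0.983 for the other 2 and 0.991 in the other 3 groups, so the members' calls that use the untreated ATG7 KO group are also given without it. Those fits hold only 2 untreated ATG7 KO libraries, and replicate 1 was singled out after its spread was seen. Their p values leave out that spread, so smaller ones are not stronger evidence. ATG7 itself was at 2.81, 2.64 and 2.21 FPKM (fragments scaled by gene length and library size) in untreated WT libraries and at 3.78, 3.42 and 3.43 FPKM in untreated libraries labelled Atg7KO. After H2O2 it was at 1.99, 1.91 and 1.97 FPKM in WT and 2.11, 2.12 and 2.35 FPKM in ATG7 KO cells. Its transcript was therefore not lower in the libraries labelled Atg7KO, and the level of this mRNA gives no check of that label. The paper checked the knockout at the protein level, by western blotting of the clones. Of 12 lens markers only SIX3 and GJA1 had a mean above 1 FPKM over the 12 libraries, and the lens crystallin CRYAA had at most 1 read in any library. The summed lens markers ran from 30.4 to 31.4 FPKM in untreated WT, 47.8 to 51.6 in treated WT, 26.8 to 28.2 in untreated ATG7 KO and 53.9 to 56.6 in treated ATG7 KO cells, most of it from GJA1. Of 4 epithelial markers KRT8 and KRT18 were above 1 FPKM, and of 5 blood cell markers only CD14. The summed blood cell markers were at 0.744 to 1.12 and 1.15 to 1.48 FPKM in untreated and treated WT and at 1.54 to 2.12 and 0.467 to 0.920 FPKM in untreated and treated ATG7 KO cells, and the epithelial markers lay between 85.9 and 171 FPKM. All 5 fibroblast and mesenchymal markers were above 1 FPKM, with a summed level of 1095 to 1110 FPKM in untreated WT, 622 to 654 in treated WT, 775 to 856 in untreated ATG7 KO and 525 to 537 in treated ATG7 KO cells. In bulk RNA, fewer cells of a kind and less RNA per cell cannot be told apart, and the part of these markers in the results below was not tested.

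The promoter sequences of TNFRSF9, TNFRSF11A and TNFRSF21 are shown because, among members above 1 FPKM, TNFRSF21 and TNFRSF11A differed most between the treated lines and TNFRSF9 differed most in its response to H2O2. Each is the 250 bases before the RefSeq transcription start (GRCh38.p14), 5′ to 3′ on the gene's strand. TNFRSF9 lies on the minus strand at chr1:7940840-7941089, TNFRSF11A on the plus strand at chr18:62325060-62325309, and TNFRSF21 on the minus strand at chr6:47309906-47310155. Capitals mark matches, on either strand, to the NF-κB consensus, to the AP-1 site TGANTCA and to the GC box GGGCGG.
TNFRSF9: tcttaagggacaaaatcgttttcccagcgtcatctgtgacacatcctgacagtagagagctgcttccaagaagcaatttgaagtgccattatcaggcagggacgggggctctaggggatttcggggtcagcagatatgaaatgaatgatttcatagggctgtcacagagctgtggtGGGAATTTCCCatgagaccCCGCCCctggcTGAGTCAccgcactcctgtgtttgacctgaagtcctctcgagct
TNFRSF11A: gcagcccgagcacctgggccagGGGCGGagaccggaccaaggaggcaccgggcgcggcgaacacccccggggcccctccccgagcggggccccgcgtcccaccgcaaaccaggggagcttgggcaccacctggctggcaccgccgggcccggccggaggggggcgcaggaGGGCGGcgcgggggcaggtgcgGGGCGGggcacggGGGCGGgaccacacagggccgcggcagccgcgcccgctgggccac
TNFRSF21: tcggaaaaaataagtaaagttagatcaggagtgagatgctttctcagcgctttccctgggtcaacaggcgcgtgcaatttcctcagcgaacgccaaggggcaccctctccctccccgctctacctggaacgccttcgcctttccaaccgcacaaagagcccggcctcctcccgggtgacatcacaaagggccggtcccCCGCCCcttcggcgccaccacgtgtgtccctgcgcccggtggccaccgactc
In TNFRSF9 the NF-κB consensus was matched by overlapping stretches on opposite strands, 74 to 65 and 73 to 64 bases before the start, an AP-1 match lay 44 to 38 bases before it, and a GC box stood between them. The TNFRSF11A window had 4 GC boxes and that of TNFRSF21 had 1. Of all 35116 promoter windows of this length, 5.21% held a match to the NF-κB consensus, 6.57% to AP-1 and 42.6% to the GC box. Among the 7 genes of the set with a promoter in the table (TNFRSF12A, CD40 and TRADD had none), only TNFRSF9 had NF-κB or AP-1 matches. The windows of TNFRSF9 and LTBR (chr12:6383912-6384161) and some of those of RIPK1 lie within the gene spans given below. For TNFRSF9 and LTBR the bases before the outer end of the gene span were therefore not searched. A match describes letters in this window and is not a measurement of binding.

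The members were expressed over a wide range. In untreated WT cells the mean level was highest for TNFRSF12A, at 82.7 ± 1.6 FPKM (SD, n = 3), followed by TNFRSF1A at 30.8 ± 0.84, RIPK1 at 18.9 ± 0.31 and LTBR at 11.6 ± 0.20. TNFRSF21 (7.17 ± 0.18), TNFRSF9 (4.79 ± 0.32), TRADD (3.66 ± 0.15) and TNFRSF11A (2.61 ± 0.18) were lower, TNFRSF1B was at 0.158 ± 0.041, and CD40 had no read. No neighbours in this order overlapped in their replicates. In treated WT cells TNFRSF11A and TRADD overlapped, and in untreated ATG7 KO cells TNFRSF21 overlapped with RIPK1 above it and with LTBR below it. In treated ATG7 KO cells TNFRSF21 stood in the third place, above RIPK1 and LTBR, and no neighbours overlapped.

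**Figure D1:**
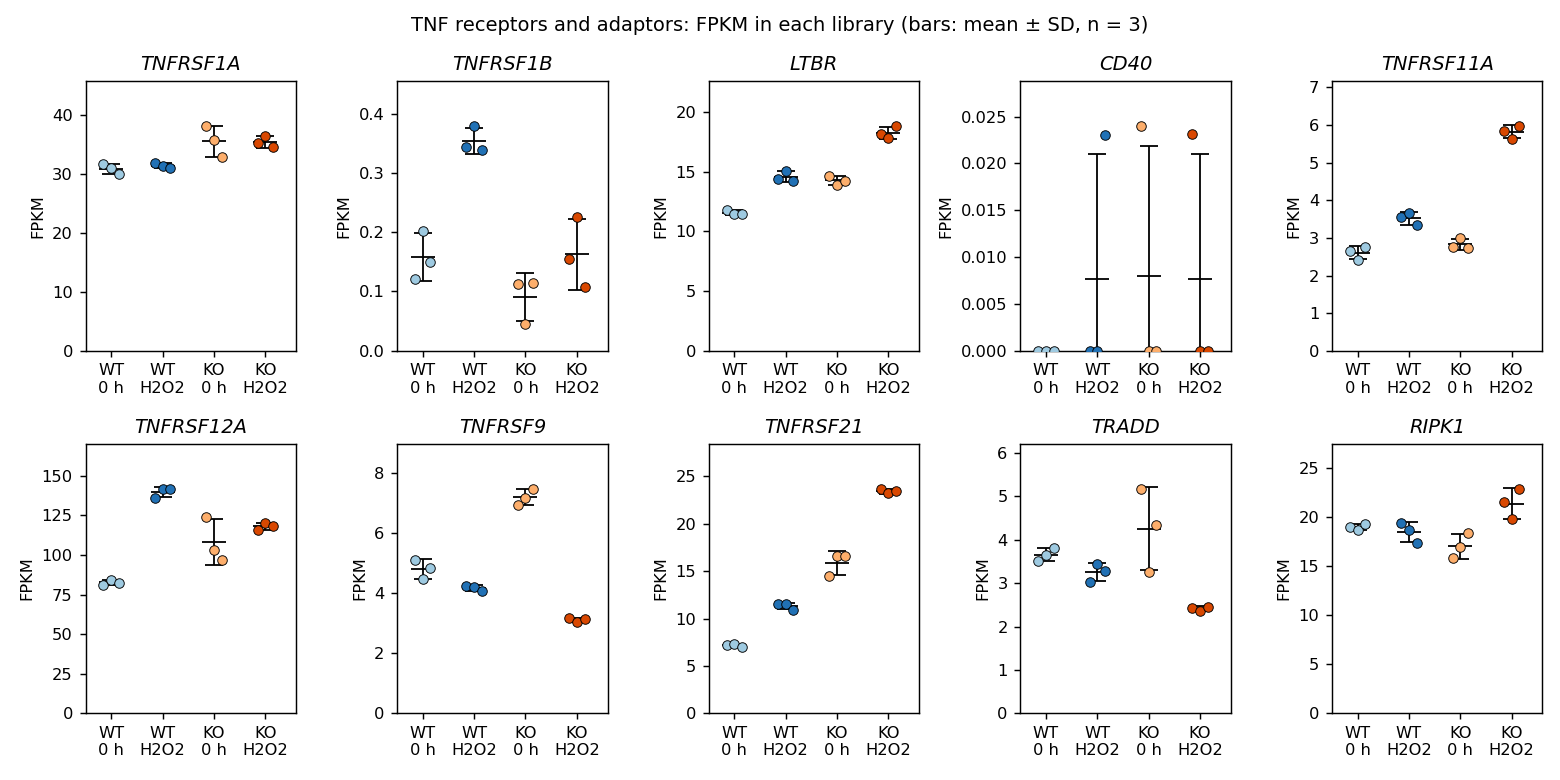
FPKM of each receptor and adaptor (vertical axes from 0, each panel with its own scale) in untreated and H2O2-treated WT and ATG7 KO cells (KO in the panels). Points are libraries, horizontal lines the mean and bars the SD (n = 3). TNFRSF21 and TNFRSF11A were highest in all 3 treated ATG7 KO libraries, where TNFRSF9 was lowest, and CD40 stayed at or below 0.024 FPKM.

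Genes were called different at a Benjamini-Hochberg adjusted p under 0.01, taken over all genes tested by the quasi-likelihood test of edgeR. With H2O2, 9 of the 10 members passed the filter on low counts and all 9 were called in ATG7 KO against WT cells, 5 higher and 4 lower, in a comparison that called 55.6% of all genes tested (27.7% higher and 27.9% lower). TNFRSF1B passed that filter only through the treated WT group, where it was high. The filter itself thus favoured a difference there and in the WT response. Of the 8 members with at least 10 counts in every library, all 8 were called between the treated lines, 5 higher and 3 lower. The shares of all genes, here and below, are over all genes that passed the filter on low counts. The share among genes with at least 10 counts in every library is not given here. CD40 was too low to test in any comparison. Without H2O2, 2 of 8 tested members were called, both higher in ATG7 KO cells, against 7.70% of all genes (4.42% higher and 3.28% lower). In WT cells 4 of the 8 members with at least 10 counts in every library (TNFRSF12A, TNFRSF21, TNFRSF11A and LTBR) rose with H2O2, against 61.0% of all genes called, 30.9% called higher and 30.1% lower. With H2O2 in ATG7 KO cells, TNFRSF21 and TNFRSF11A rose and TNFRSF9 fell, 3 of 8 tested, against 26.0% of all genes (13.6% higher and 12.4% lower). Under the filter of at least 10 counts in every library, LTBR was called there too, so that 3 of 8 rose and 1 fell. The response to H2O2 differed between the lines for 3 of 9 tested members, against 14.0% of all genes (7.02% higher and 7.01% lower). At an adjusted p under 0.05 the members called numbered 9, 3, 6, 6 and 5 in these comparisons, in the same order, where 64.7%, 18.5%, 69.0%, 43.2% and 30.1% of all genes were called. With all 12 libraries in 1 fit, LTBR, TNFRSF11A, TNFRSF9 and TNFRSF21 were called between the treated lines and the other 5 were not. Shares of all genes called in fits under other settings are not given, here or below. Except for TNFRSF1B, the called differences between treated lines ran from a log2 value of -0.44 to 1.04, and only TNFRSF21 also had a change beyond 1 on the log2 scale with a mean above 1 FPKM, a rule that 7.46% of all genes met. That rule was met by 1 member without H2O2 (3.50% of all genes), by 2 in the ATG7 KO response (11.2%) and by 1 in the difference of the responses (5.17%), while the largest WT response of a member above 1 FPKM was 0.75 (12.5% of all genes met the rule there).

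**Figure D2:**
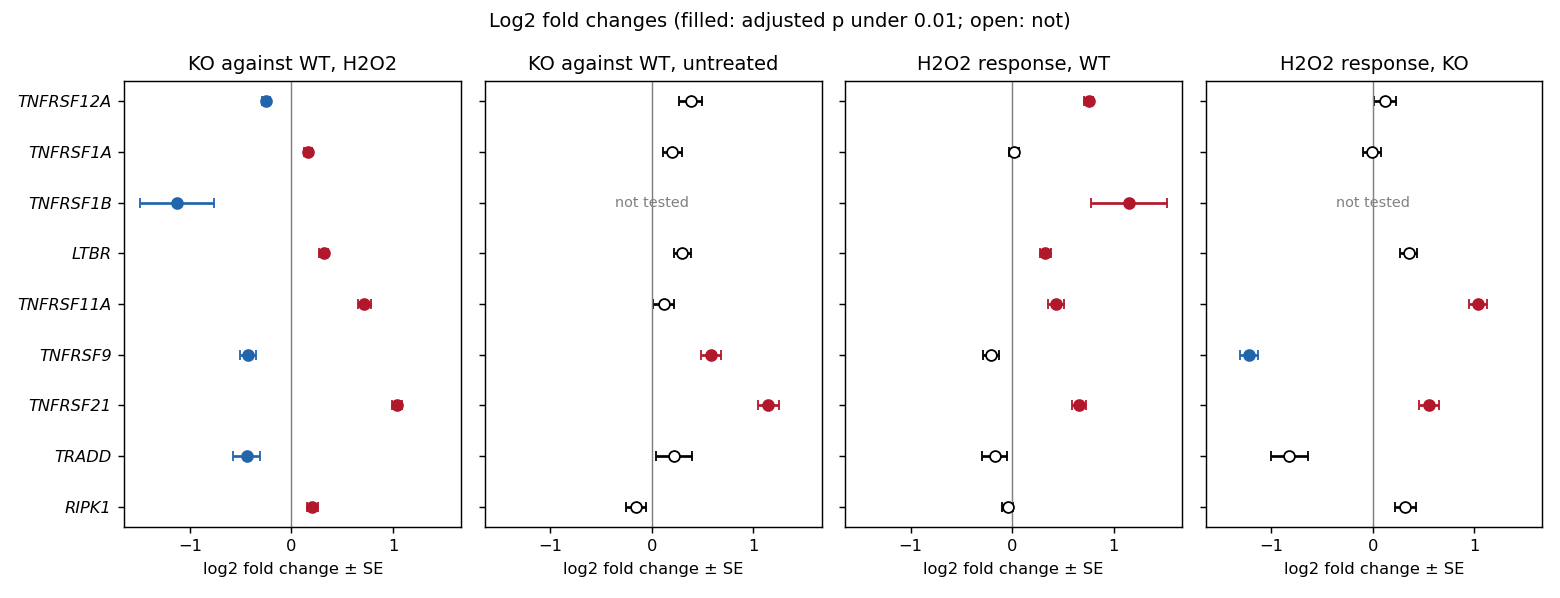
Log2 fold change (horizontal axes) of 9 members in the 4 comparisons of groups, with the SE as bars. Filled points have an adjusted p under 0.01 and open points do not. TNFRSF1B was tested in 2 of them, both through treated WT cells, where it was high. TNFRSF21 lies at about 1 in both comparisons of ATG7 KO with WT cells, and TNFRSF9 lies on opposite sides of 0 in them.

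TNFRSF1A (ENSG00000067182, chr12:6328757-6342114), the receptor through which soluble TNF acts in most cells, had similar values with and without H2O2. It was at 31.6, 30.9 and 30.0 FPKM in untreated WT cells and at 31.8, 31.3 and 31.0 FPKM after H2O2. In ATG7 KO cells the values were 38.1, 35.6 and 32.8 FPKM untreated and 35.2, 36.4 and 34.5 FPKM treated. All ATG7 KO libraries lay above all WT libraries, while treated and untreated libraries of each line overlapped. With H2O2 it was higher in ATG7 KO cells by 0.17 on the log2 scale (SE 0.04, edgeR adjusted p = 0.000766). That call was lost when all 12 libraries shared 1 fit (adjusted p = 0.0584). Without H2O2 the difference was 0.20 (SE 0.09, adjusted p = 0.183), and 0.16 (adjusted p = 0.00497) without untreated ATG7 KO replicate 1. Its log2 response to H2O2 was 0.02 (SE 0.05, adjusted p = 0.741) in WT and -0.01 (SE 0.09, adjusted p = 0.937) in ATG7 KO cells.

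TNFRSF1B (ENSG00000028137, chr1:12167003-12209228), the TNF receptor without a death domain, is known mainly from immune and endothelial cells and was scarce here. It had 8, 14 and 10 reads in untreated WT libraries and 22 in each treated WT library. In ATG7 KO cells it had 7, 3 and 8 reads untreated and 10, 14 and 7 treated. The treated WT libraries were above all others. TNFRSF1B passed the filter in the WT response and between the treated lines only through these libraries. The filter itself thus favoured a difference, and those tests are not read as results.

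LTBR (ENSG00000111321, chr12:6375045-6391571), the receptor of membrane lymphotoxin and of TNFSF14, lies 32930 bases from TNFRSF1A. It was at 11.8, 11.5 and 11.5 FPKM in untreated WT cells and at 14.4, 15.1 and 14.3 FPKM after H2O2. The ATG7 KO libraries were at 14.7, 13.9 and 14.2 FPKM untreated and at 18.1, 17.9 and 18.8 FPKM treated. Thus the untreated ATG7 KO libraries overlapped with the treated WT libraries, and the treated ATG7 KO libraries were above all others. With H2O2 it was higher in ATG7 KO cells by 0.32 (SE 0.04, edgeR adjusted p = 2.44e-07), 1.25 times the WT level, and it rose in WT cells by 0.33 (SE 0.05, adjusted p = 4.02e-07). The difference without H2O2 was 0.30 (SE 0.08, adjusted p = 0.0446), and the ATG7 KO response was 0.35 (SE 0.08, adjusted p = 0.0112). Without untreated ATG7 KO replicate 1 they were 0.29 (adjusted p = 2.23e-06) and 0.36 (adjusted p = 2.53e-13), and both were then called. The 2 responses differed by 0.03 on the log2 scale (SE 0.09, adjusted p = 0.851). SCNN1A, on the other strand, overlaps LTBR over 2686 bases and had 5 to 39 reads, against 1281 to 2053 for LTBR.

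CD40 (ENSG00000101017, chr20:46118272-46129863), the receptor through which helper T cells activate B cells, had 3 reads in all 12 libraries together. One read each lay in treated WT, untreated ATG7 KO and treated ATG7 KO cells. No difference in CD40 was detectable at this depth.

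TNFRSF11A (ENSG00000141655, chr18:62325287-62391292) encodes RANK, the receptor that drives osteoclast formation. It was at 2.66, 2.41 and 2.75 FPKM in untreated WT cells and at 3.56, 3.67 and 3.33 FPKM after H2O2. In ATG7 KO cells it was at 2.76, 3.01 and 2.73 FPKM untreated and at 5.85, 5.64 and 5.98 FPKM treated. The lines overlapped before treatment, and after it every ATG7 KO library was above every WT library. With H2O2 it was 1.65 times the WT level in ATG7 KO cells (log2 0.72, SE 0.06, edgeR adjusted p = 9.63e-12), while without H2O2 the log2 difference was 0.12 (SE 0.10, adjusted p = 0.452). It rose in both lines, by 0.43 (SE 0.08, adjusted p = 4.94e-06) in WT and by 1.04 (SE 0.09, adjusted p = 0.000188) in ATG7 KO cells. The response was larger in ATG7 KO cells by 0.61 on the log2 scale (SE 0.11, adjusted p = 0.00216). With a correction for gene length (8999 bases for this gene) the difference of the responses was 0.33 and no longer called (adjusted p = 0.0617). It kept its call in each fit that left out 1 library. Without untreated ATG7 KO replicate 1 the ATG7 KO response was 1.01 (adjusted p = 2.00e-34) and the difference of the responses 0.59 (adjusted p = 2.25e-06).

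TNFRSF12A (ENSG00000006327, chr16:3018445-3022383) encodes Fn14, the receptor of TNFSF12 that many tissues raise after injury, and was the most abundant member in every group. It was at 81.3, 84.5 and 82.4 FPKM in untreated WT cells and at 136, 142 and 142 FPKM after H2O2. ATG7 KO cells were at 124, 103 and 97.0 FPKM untreated and at 116, 120 and 118 FPKM treated. The untreated WT libraries were below all others and the treated WT libraries above all others, while treated and untreated ATG7 KO libraries overlapped. In WT cells it rose 1.68-fold (log2 0.75, SE 0.04, edgeR adjusted p = 5.21e-20), and in ATG7 KO cells the log2 response was 0.12 (SE 0.11, adjusted p = 0.394). The ATG7 KO response was the smaller one, and the responses differed by -0.63 (SE 0.12, adjusted p = 0.00232). With H2O2 it was lower in ATG7 KO than in WT cells, at -0.25 (SE 0.04, adjusted p = 5.11e-07), and without H2O2 the difference was 0.38 (SE 0.11, adjusted p = 0.0549). TNFRSF12A is short (1848 bases), and with the correction for gene length the treated difference was -0.07 (adjusted p = 0.0932) and the difference of the responses -0.30 (adjusted p = 0.0140), neither of them called. Leaving out untreated ATG7 KO replicate 1, the highest of its group, gave 0.28 (adjusted p = 3.80e-08) for the untreated difference and 0.23 (adjusted p = 1.92e-08) for the ATG7 KO response. The difference of the responses was then -0.51 (adjusted p = 5.65e-12), and it lost its call without treated ATG7 KO replicate 1 (-0.61, adjusted p = 0.0101). CLDN6, on the other strand, overlaps it over 1627 bases and had 1 to 86 reads, against 2618 to 4501 for TNFRSF12A.

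TNFRSF9 (ENSG00000049249, chr1:7915894-7943165) encodes CD137 and is itself known as an NF-κB target in immune cells. It was at 5.10, 4.46 and 4.82 FPKM in untreated WT cells and at 4.24, 4.19 and 4.05 FPKM after H2O2. ATG7 KO cells had it at 6.93, 7.17 and 7.47 FPKM untreated and at 3.16, 3.03 and 3.12 FPKM treated. The ATG7 KO cells thus held both the highest and the lowest values, and no group overlapped with another. Without H2O2 it was higher in ATG7 KO than in WT cells (log2 0.58, SE 0.10, edgeR adjusted p = 0.00673), and with H2O2 it was 0.743 times the WT level (log2 -0.43, SE 0.08, adjusted p = 2.33e-05). In ATG7 KO cells it fell to 0.430 of its untreated level (log2 -1.22, SE 0.09, adjusted p = 9.29e-05), and in WT cells the log2 response was -0.21 (SE 0.08, adjusted p = 0.0143). The responses differed by -1.01 (SE 0.11, adjusted p = 8.10e-05), and the adjusted p of this difference was between 7.58e-14 and 0.000632 under the other settings. Without untreated ATG7 KO replicate 1 the ATG7 KO response was -1.25 (adjusted p = 5.21e-42) and the difference of the responses -1.03 (adjusted p = 1.42e-13). The untreated difference, in contrast, was called in only 1 of 6 fits that left out a library, that without untreated ATG7 KO replicate 1, and had an adjusted p of up to 0.0495 in the others. The WT response was called without untreated WT replicate 2, the lowest of its group (-0.27, adjusted p = 0.00569).

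TNFRSF21 (ENSG00000146072, chr6:47231532-47309905) encodes DR6, a receptor with a death domain that is studied mainly in neurons and T cells. It was at 7.23, 7.30 and 6.97 FPKM in untreated WT cells and at 11.5, 11.5 and 10.9 FPKM after H2O2. The ATG7 KO libraries were at 14.5, 16.6 and 16.6 FPKM untreated and at 23.7, 23.2 and 23.4 FPKM treated. The 4 groups did not overlap, and every ATG7 KO library, treated or not, was above every WT library. It was 2.22 times the WT level without H2O2 (log2 1.15, SE 0.10, edgeR adjusted p = 0.000592) and 2.06 times with it (log2 1.04, SE 0.05, adjusted p = 2.29e-17). It rose with H2O2 by 0.66 (SE 0.07, adjusted p = 2.47e-11) in WT and by 0.55 (SE 0.10, adjusted p = 0.00353) in ATG7 KO cells, a difference of -0.10 (SE 0.11, adjusted p = 0.493). Both differences between the lines kept their call under every other setting tried, with an adjusted p of at most 0.00837. The call of the ATG7 KO response was lost in 5 of 6 fits that left out a library, all but that without untreated ATG7 KO replicate 1 (0.48, adjusted p = 2.61e-17), with an adjusted p of up to 0.0229.

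TRADD (ENSG00000102871, chr16:67154180-67160298) is the adaptor that binds the death domain of TNFRSF1A. It was at 3.51, 3.64 and 3.82 FPKM in untreated WT cells and at 3.03, 3.44 and 3.28 FPKM after H2O2. In ATG7 KO cells it was at 5.17, 3.26 and 4.33 FPKM untreated and at 2.43, 2.35 and 2.45 FPKM treated. The untreated ATG7 KO libraries were widely spread and overlapped with both WT groups, while the treated ATG7 KO libraries were below all others. With H2O2 it was 0.738 times the WT level in ATG7 KO cells (log2 -0.44, SE 0.13, edgeR adjusted p = 0.00496). This call was lost in 5 of 6 fits that left out 1 library, all but that without treated WT replicate 1, with an adjusted p of up to 0.0225, and with the correction for gene length (-0.30, adjusted p = 0.0530). It was also lost with DESeq2 (adjusted p = 0.0167) and in the edgeR fits without a filter (adjusted p = 0.0187) and with all 12 libraries (adjusted p = 0.0375). The log2 response was -0.18 (SE 0.13, adjusted p = 0.218) in WT and -0.82 (SE 0.18, adjusted p = 0.0107) in ATG7 KO cells, and their difference was -0.65 (SE 0.21, adjusted p = 0.0364). The ATG7 KO response was called without untreated ATG7 KO replicate 1 (-0.67, adjusted p = 2.63e-05) and without replicate 2 (-0.99, adjusted p = 0.00453), and the difference of the responses without replicate 2 (-0.80, adjusted p = 0.00480). FBXL8, on the other strand, overlaps TRADD over 368 bases and had 15 to 54 reads, against 99 to 219 for TRADD, so reads of the 2 genes may be mixed.

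RIPK1 (ENSG00000137275, chr6:3063991-3115187) is the kinase and scaffold on which survival and death signals of TNFRSF1A part. It was at 18.9, 18.6 and 19.2 FPKM in untreated WT cells and at 19.4, 18.6 and 17.3 FPKM after H2O2. ATG7 KO cells were at 15.8, 16.9 and 18.3 FPKM untreated and at 21.5, 19.7 and 22.9 FPKM treated. The treated ATG7 KO libraries were above all others, while the other groups lay between 15.8 and 19.4 FPKM. With H2O2 it was 1.15 times the WT level in ATG7 KO cells (log2 0.21, SE 0.05, edgeR adjusted p = 0.00136), and this call was lost without treated ATG7 KO replicate 3 (0.16, adjusted p = 0.0207), the highest library. It was also lost with all 12 libraries in 1 edgeR fit (adjusted p = 0.053). The same held for limma on log2 of FPKM plus 1 (adjusted p = 0.0184) or plus 0.1 (adjusted p = 0.0175). Without H2O2 the difference was -0.15 (SE 0.10, adjusted p = 0.302). The log2 response was -0.04 (SE 0.05, adjusted p = 0.480) in WT and 0.32 (SE 0.10, adjusted p = 0.0422) in ATG7 KO cells, and the difference of the responses was 0.37 (SE 0.12, adjusted p = 0.0307). Without untreated ATG7 KO replicate 1 the last 2 values were 0.26 (adjusted p = 1.05e-06) and 0.32 (adjusted p = 0.000388). The 2 adaptors thus differed in sign between the treated lines.

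**Figure D3:**
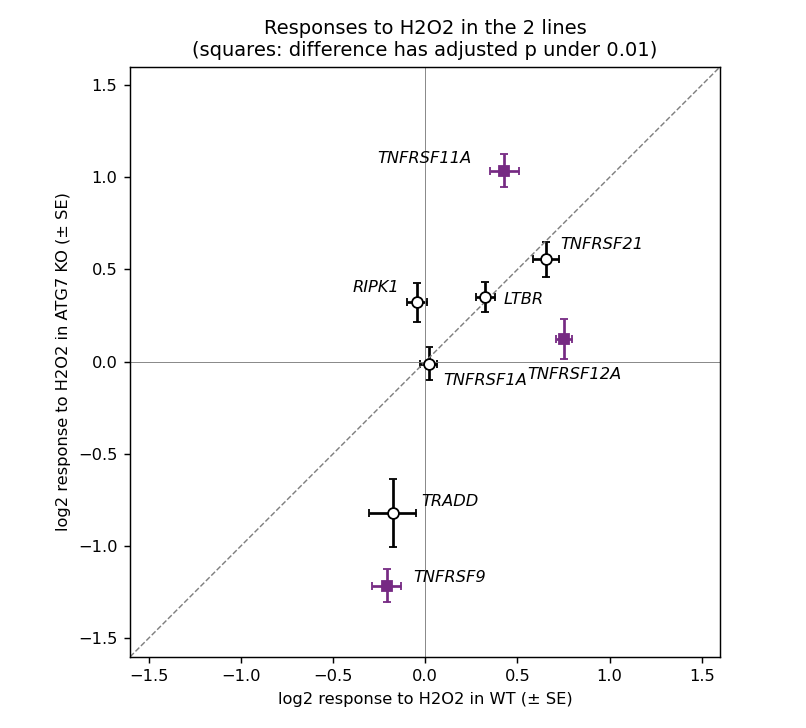
Log2 response to H2O2 in ATG7 KO cells (vertical axis) against that in WT cells (horizontal axis), each with its SE, for the 8 members tested in both lines. The dashed line marks equal responses, and filled squares mark a difference of the responses with an adjusted p under 0.01. TNFRSF11A lies above the line, and TNFRSF12A and TNFRSF9 lie below it.

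With untreated ATG7 KO replicate 1 left out, 5 members were called between the untreated lines (LTBR, TNFRSF12A, TNFRSF1A, TNFRSF21 and TNFRSF9) in place of 2, and 7 were called in the ATG7 KO response in place of 3. The share of all genes called in these 2 fits is not given here. Calls rose outside the members too: of 26 receptor complex proteins, 15 were called in each of these fits, in place of 4 and 8. The rise was therefore not particular to the members. In the other 5 fits that left out a library of the untreated comparison 1 member was called. The biological coefficient of variation, edgeR's measure of spread between replicates, was 0.162 between the untreated lines and 0.161 in the ATG7 KO response, against 0.0416 between the treated lines and 0.0470 in the WT response.

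**Figure D4:**
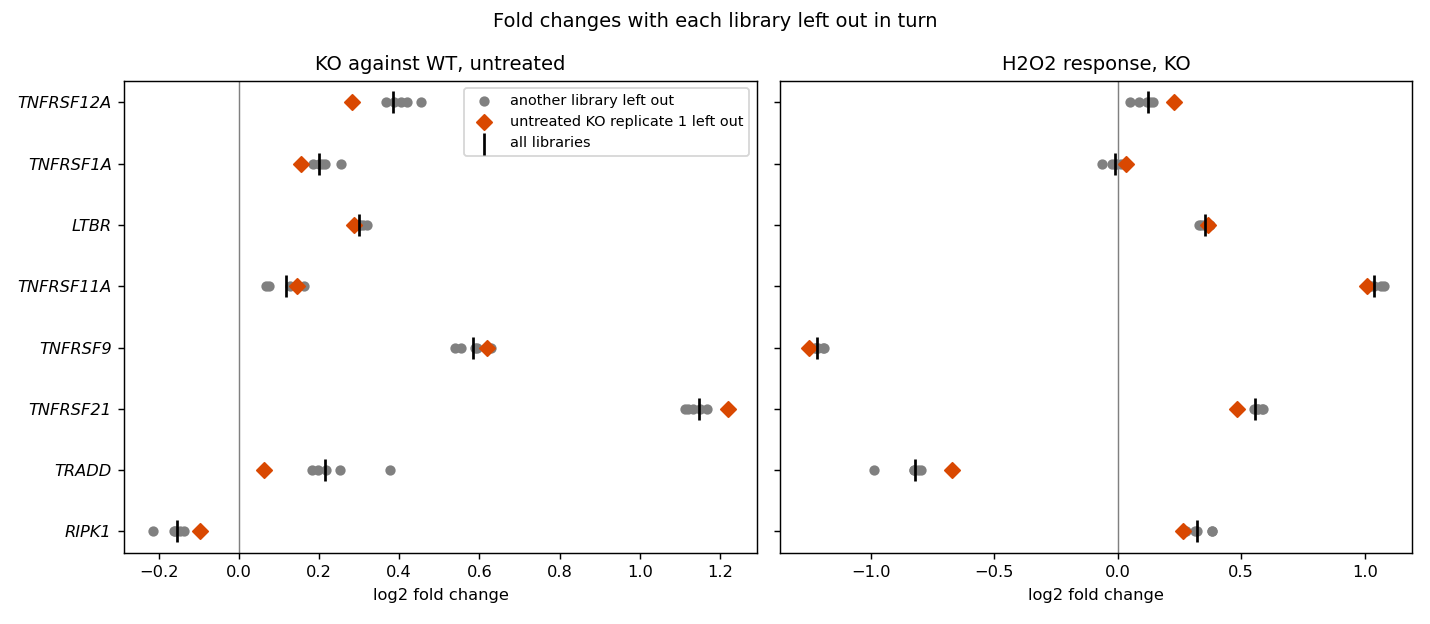
Log2 fold changes (horizontal axes) of 8 members between the untreated lines and in the H2O2 response of ATG7 KO cells, with all libraries (black bars), without untreated ATG7 KO replicate 1 (diamonds) and without each other library (grey points). TNFRSF12A and TRADD moved most without replicate 1, and TNFRSF9 and TNFRSF21 stayed far from 0.

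The ligands of these receptors were mostly scarce. Between the treated lines, TNFSF9 and LTA had at least 10 counts in every library, and both were lower in ATG7 KO cells, where 27.9% of all genes were called lower. TNF and LTB passed the filter only through treated WT cells, where they were high. The filter itself thus favoured a difference, and their tests are not read as results. TNF had no read in any untreated WT library and 18, 12 and 32 reads in treated WT libraries. In ATG7 KO cells it had 8, 1 and 6 reads untreated and none in any treated library. Both lines therefore had reads of TNF, but in opposite conditions. With the group without reads set to 3 reads over its 3 libraries, the reads of treated WT cells, scaled by library totals, were 21.4-fold those of treated ATG7 KO and of untreated WT cells. On the same floor the ratio of untreated ATG7 KO to untreated WT cells was 5.02. These ratios leave out the spread of the counted reads, and TNF was not tested between the untreated lines. Of the 15 reads in untreated ATG7 KO cells, 8 lay in replicate 1, and without it the ratio to untreated WT cells was 3.47.

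TNFSF9, the ligand of TNFRSF9, was the most abundant ligand. It was at 4.48, 5.06 and 4.09 FPKM in untreated WT cells and at 21.3, 22.5 and 20.5 FPKM after H2O2. ATG7 KO cells had it at 5.03, 3.03 and 4.31 FPKM untreated and at 17.5, 16.2 and 15.8 FPKM treated. It rose by 2.23 (SE 0.10, edgeR adjusted p = 5.78e-25) in WT and by 1.995 (SE 0.18, adjusted p = 0.000250) in ATG7 KO cells, so ligand and receptor moved in opposite directions in the ATG7 KO cells. Without untreated ATG7 KO replicate 1 that response of TNFSF9 was 2.15 (adjusted p = 7.49e-53). The treated lines differed in TNFSF9 by -0.38, the ATG7 KO cells being lower (log2, SE 0.07, adjusted p = 1.73e-05).

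LTA, which binds both TNF receptors as a soluble trimer, had means of 0.0948 FPKM in untreated and 2.03 FPKM in treated WT cells and of 0.107 and 0.826 FPKM in untreated and treated ATG7 KO cells. Between the treated lines its log2 difference was -1.30 (SE 0.24, edgeR adjusted p = 2.15e-05). LTB, which anchors lymphotoxin in the membrane for LTBR, had 3, 8 and 6 reads in untreated and 13, 14 and 16 in treated WT libraries. The ATG7 KO libraries had 17, 14 and 15 reads untreated and 3, 5 and 4 treated. The groups of a line did not overlap, with the higher values after H2O2 in WT and before it in ATG7 KO cells. LTA and LTB passed the filter in each response only through the group where they were high, so those tests are not read as results. LTBR itself rose in WT cells and its 2 responses were close, as given above. TNFSF12, the ligand of TNFRSF12A, was at a mean of 0.368 and 0.268 FPKM in untreated and treated WT cells. In ATG7 KO cells it was at 0.778 FPKM untreated and 0.428 FPKM treated. Treated libraries had 12, 13 and 16 reads of it in ATG7 KO and 10, 7 and 8 in WT cells. The log2 difference between the treated lines was 0.66 (SE 0.41, edgeR adjusted p = 0.165) and was not called. TNFSF12 passed the filter there through the ATG7 KO libraries, so this test is not read as a result. TNFSF14 was at 0.178 and 0.180 FPKM in treated WT and ATG7 KO cells (log2 0.02, SE 0.39, adjusted p = 0.971). TNFSF11, the ligand of TNFRSF11A, had no read in any library, and CD40LG had 2 reads, both in treated ATG7 KO replicate 3.

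Of 21 other TNF receptor superfamily genes, 10 had at least 10 counts in every library of the treated lines, and 4 were higher and 1 lower in ATG7 KO cells, where 55.6% of all genes were called. TNFRSF10C, EDA2R and TNFRSF13C were tested too and called, but passed the filter only through the line where they were high. The smallest adjusted p values belonged to TNFRSF10D, a decoy receptor of TRAIL, at 89.5 ± 2.1 against 127 ± 8.0 FPKM in WT (log2 -0.51, SE 0.04), to NGFR, a neurotrophin receptor, at 12.2 ± 0.13 against 7.08 ± 0.76 FPKM (0.78, SE 0.07), and to TNFRSF14, a receptor of TNFSF14, at 1.01 ± 0.021 against 0.404 ± 0.090 FPKM (1.30, SE 0.18). In the WT response 7 of 10 genes with at least 10 counts in every library rose and 1 fell, where 30.9% of all genes rose and 30.1% fell. In the ATG7 KO response 7 of 9 such genes rose, where 13.6% of all genes rose. These shares are over all genes that passed the filter on low counts, and not over those with at least 10 counts in every library.

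Of 27 proteins of the receptor complexes, 26 were tested between the treated lines, and 8 were higher and 10 lower in ATG7 KO cells (median -0.03), where 55.6% of all genes were called. With all 12 libraries in 1 fit 9 were called, 3 higher and 6 lower. TAB3, which links ubiquitin chains to the kinase TAK1, was at 21.9 ± 0.58 against 9.81 ± 0.13 FPKM in WT (log2 1.15, SE 0.04). BIRC2, a ubiquitin ligase that acts on RIPK1, was at 27.9 ± 0.36 against 43.9 ± 2.2 FPKM (-0.66, SE 0.04), and CYLD, which removes those chains, was at 5.77 ± 0.14 against 9.38 ± 0.72 FPKM (-0.71, SE 0.05). Among the genes of receptor shedding, TIMP3, an inhibitor of the sheddase ADAM17, was at 8.63 ± 0.14 against 1.98 ± 0.14 FPKM (2.12, SE 0.09) and the protease ADAM10 at 15.3 ± 0.16 against 12.0 ± 0.33 FPKM (0.34, SE 0.04). ADAM17, which cleaves TNF and its receptors, was at 9.63 ± 0.34 against 8.73 ± 0.20 FPKM (0.13, SE 0.05, edgeR adjusted p = 0.0106).

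Of 16 NF-κB target genes, 14 were tested between the treated lines. In ATG7 KO cells 4 were higher and 9 lower (median -0.36), where 27.7% of all genes were called higher and 27.9% lower. With all 12 libraries in 1 fit, 2 were higher and 7 lower. IL6 was at 115 ± 4.4 against 64.2 ± 3.4 FPKM in WT (log2 0.83, SE 0.04), while NFKBIA, the NF-κB inhibitor, was at 97.8 ± 4.2 against 155 ± 6.3 FPKM (-0.67, SE 0.04) and the adhesion molecule ICAM1 at 60.7 ± 2.2 against 106 ± 7.7 FPKM (-0.82, SE 0.04). Without H2O2, 7 of 14 were higher and 1 lower in ATG7 KO cells (median 0.92), where 4.42% of all genes were called higher and 3.28% lower. When untreated ATG7 KO replicate 1 was left out, 13 were called in all, and the share of all genes called in that fit is not given here. In the difference of the responses 12 of 14 were called, each with the lower log2 response in ATG7 KO cells (median -1.44, against -0.03 over all genes), where 7.01% of all genes were called in that direction. Without untreated ATG7 KO replicate 1, 13 were called in that direction and 1 in the other (median -1.25, against -0.01 over all genes). The share of all genes called in this fit is not given here either. TNFRSF9 and TNFRSF12A had the lower response too, and TNFRSF11A the higher one. BIRC3, TNFAIP3 and TRAF1 stand in this list and in that of the receptor complexes.

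The genes most like each member over the 12 libraries, by Pearson's r of log2 CPM among 13306 genes, were LAMB3 (0.998) and PDE4D (0.996) for TNFRSF21 and ZFAND2A (0.992) and NFKBIE (0.986) for TNFRSF12A. For TNFRSF11A they were TAB3 (0.988) and PAQR3 (0.986), for LTBR PHC2 (0.988) and SERPINE2 (0.988), and for TNFRSF9 SLC35B2 (0.979) and ADRA1B (0.976). For TNFRSF1A they were C3orf14 (0.950) and UXS1 (0.950), for TRADD IAH1 (0.971) and RAB1B (0.967), and for RIPK1 SMYD4 (0.931) and USP47 (0.920). These values describe 12 points that share 4 groups and their library scaling.

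Genes near a member did not always share its sign between the treated lines. Over all genes, 27.7% were called higher and 27.9% lower in this comparison. Of the 20 nearest tested genes of RIPK1, which was higher in ATG7 KO cells, 13 were called lower and 0 higher (median log2 difference -0.58). For LTBR and TNFRSF1A, also higher, 11 and 10 of the 20 nearest were called lower, with medians of -0.22 and -0.18. These 2 genes shared 17 of those neighbours and are 1 observation. TNFRSF11A was higher among neighbours of which 13 were called higher and 4 lower (median 0.38), and TNFRSF12A was lower among neighbours of which 11 were called lower and 1 higher (median -0.38). The 20 neighbours of TNFRSF21 had a median of 0.14 (8 called higher and 4 lower), against 1.04 for TNFRSF21 itself. Around TNFRSF9, which was lower, 2 were called higher and 6 lower (median -0.11). Around TRADD, also lower, 5 were called higher and 4 lower (median 0.09). The counts were 5 higher and 11 lower around TNFRSF1B and 10 higher and 4 lower around CD40. The part of position in these results was not tested.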

How the data were processed

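Total RNA of 12 HLE-B3 libraries was sequenced after preparation with the NEBNext Ultra kit. The deposited read counts are whole numbers of reads per gene, which the authors made, per the submitters' processing notes, with HISAT2 2.0.5 and featureCounts 1.5.0-p3 on GRCh38. The strand setting and the handling of multi-mapping reads are not given in the sources used here, so overlapping genes can share reads. The authors also deposited FPKM values. Dividing each count by gene length and library total gave these values up to 1 factor per library, 0.949 to 1.02.

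Samples were grouped by line and treatment from their labels, 3 libraries per group, and p values measure only the spread between these libraries. Counts were tested with edgeR 4.0.16 (limma 3.58.1, R 4.3.3): filterByExpr with a minimum count of 10, TMM scaling and a robust quasi-likelihood fit of the 6 libraries of each comparison, or of all 12 for the difference of the H2O2 responses. p values were adjusted by Benjamini-Hochberg over all genes tested and called under 0.01. The study used DESeq2 and additionally required a log2 change beyond 1 and an FPKM above 1, which is tried as another rule. Tests were tried on simulated data first. SE values were derived from the fold change and its F statistic.

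All 10 members are named in every comparison. Of the other lists, every ligand and at most 3 genes per list (the smallest adjusted p between the treated lines) are named with values. The members and lists were chosen with earlier results of these data known. SOD2 stands on 2 rows and was not used. Other settings were DESeq2 1.42.0, RLE and upper quartile scaling, no filter, at least 10 counts in every library, all 12 libraries in 1 fit, the replicate number as a block, a lowess correction for gene length (span 0.3), limma on log2 of FPKM plus 1 or 0.1, other call rules, and each library left out in turn.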

Additional observations from a re-analysis of the deposited data

Results flagged for a closer look

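Responses to H2O2 that differed between ATG7 KO and WT cells were found for 3 members by edgeR's test of the difference itself (Benjamini-Hochberg over 16856 genes, all 12 libraries). For TNFRSF9 the difference was -1.01 on the log2 scale (SE 0.11, adjusted p = 8.10e-05), since it fell in ATG7 KO cells and the WT response was -0.21. For TNFRSF12A it was -0.63 (SE 0.12, adjusted p = 0.00232), since it rose in WT cells and the ATG7 KO response was 0.12. For TNFRSF11A it was 0.61 (SE 0.11, adjusted p = 0.00216), since it rose in both lines and more so in ATG7 KO cells. Groups of 3 libraries are too small for the test of single outlying libraries.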

How the results depend on the processing

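Over the members' tests, 269 of the values with 1 library left out and 373 of those under other settings kept their sign and their side of the threshold. With 1 library left out, 27 lost and 11 gained their call and 5 changed sign, and under the other settings 22 lost and 14 gained it and 9 changed sign. Counts here include TNFRSF1B. Members called with 1 library left out ranged from 6 to 8 between the treated lines, 1 to 5 between the untreated lines, 4 to 6 in the WT response, 2 to 7 in the ATG7 KO response and 2 to 4 in the difference of the responses. With all 12 libraries in 1 fit, 4 were called between the treated lines, 4 between the untreated lines and 6 in the ATG7 KO response. DESeq2 called 5 in the ATG7 KO response. The gene length correction left 1 in the difference of the responses. As the shares of all genes called in these fits are not given here, the changes are not read as particular to the members. Of 26 receptor complex proteins, 9 were called between the treated lines with all 12 libraries in 1 fit, in place of 18. At an adjusted p under 0.05, 6 were called in the ATG7 KO response and 5 in the difference of the responses. A log2 change beyond 1 with a mean FPKM over 1 left 1 between the treated lines, 1 between the untreated lines, 0 in the WT response (where edgeR's unadjusted p was under 0.05 for 6 members) and 1 in the difference of the responses. Signs changed only for values near 0 that were not called. For TNFRSF1A the WT response was -0.022 without a filter and, with 1 library left out, between -0.015 (without untreated WT replicate 3) and 0.022. Its ATG7 KO response was 0.0013 with DESeq2, 0.0013 with RLE scaling, 0.052 with the length correction and, with 1 library left out, between -0.064 and 0.035 (without untreated ATG7 KO replicate 1), and also above 0 without treated ATG7 KO replicate 3 (0.015). Its difference of the responses was 0.028 with the length correction and, with 1 library left out, between -0.071 and 0.029 (without untreated ATG7 KO replicate 1), and also above 0 without untreated WT replicate 3 (0.0018). For LTBR that difference was -0.013 with upper quartile scaling, -0.0066 with at least 10 counts in every library and -0.095 with the length correction, and for TNFRSF21 it was 0.00045 with the length correction. Without a filter the median over all genes was 0.20 in the WT response, -0.12 in the difference of the responses and -0.12 between the treated lines. The cause of these shifts was not tested. The replicate numbers did not pair the samples: same-numbered libraries of different groups had correlations of -0.069 to 0.098 over 18 pairs, and for 12 of the 36 combinations of a library and another group the highest correlation was with the same number. With the replicate block, 1 member was called between the untreated lines in place of 2. The block also ended the call of TNFRSF21 in the ATG7 KO response (adjusted p = 0.0137), and TNFRSF9 had an adjusted p of 0.0297 between the untreated lines. Depth limits TNFRSF1B, CD40, TNF and LTB, which had at most 32 reads in a library.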
